A study of Mus musculus with 15 samples.

Results

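The 10 genes described here encode integrin chains and surface proteins tied to the homing and retention of T cells in tissue: Itgae, Itga1, Itga4, Itgal, Itgb1, Itgb2, Itgb7, Cd69, Cd44 and Crtam. They were taken by name and make up 10 of the 21788 gene symbols listed in any of the 15 libraries. Integrins are pairs of 1 alpha and 1 beta chain that bind matrix or other cells. Itgae pairs with Itgb7 and binds E-cadherin, Itga1 pairs with Itgb1 and binds collagen, Itga4 pairs with Itgb1 or Itgb7 and binds VCAM-1, fibronectin or MAdCAM-1, and Itgal pairs with Itgb2 as LFA-1, the receptor for ICAM proteins. Cd69 is an early activation marker that holds lymphocytes in tissue by drawing the egress receptor S1pr1 off the surface, Cd44 binds hyaluronan, and Crtam is an adhesion receptor that activated CD8+ T cells make for a short time. Itgae, Itga1 and Cd69 are commonly used to mark tissue-resident CD8+ T cells.

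All libraries came from CD8+ tumour-infiltrating T cells taken on day 21 from female mice of 9 to 11 weeks with E.G7 tumours, an EL4-derived mouse lymphoma line that makes ovalbumin. Mice had received the tumour cells under the skin at 6 to 8 weeks. The bulk pair held ovalbumin-specific cells, with 1 library from wild-type mice and 1 labelled B7S1 knockout (KO), 6 mice per group. B7S1, the product of Vtcn1, is an inhibitory ligand of the B7 family. The sorted libraries held PD-1+ cells: TIM-3_SP was Tim-3+ and B7S1R-, B7S1R_SP was Tim-3- and B7S1R+, and DN lacked both. For each of the 3 populations there were wild-type libraries numbered 1 and 2 and a single library labelled B7S1 KO. The remaining 4 libraries, from wild-type mice, were titled Control, anti_B7S1, anti_PD1 and combo, with no dose or schedule given. In any of these libraries, RNA from fewer cells of a type cannot be told apart from less RNA per cell.

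On the GRCm38 build (GENCODE M21) the alpha chain genes lie on chromosomes 11 (73090583 to 73147446) for Itgae, 13 (114953096 to 115101964) for Itga1, 2 (79255426 to 79333123) for Itga4 and 7 (127296260 to 127335138) for Itgal. The beta chain genes lie on chromosomes 8 (128685654 to 128733200) for Itgb1, 10 (77530252 to 77565708) for Itgb2 and 15 (102215995 to 102231944) for Itgb7. Cd69 lies on chromosome 6 (129267325 to 129275436), Cd44 on chromosome 2 (102811141 to 102901665) and Crtam on chromosome 9 (40969691 to 41004628). Itga4 shares 1124 exonic bases with Cerkl on the other strand and Itga1 shares 685 with Gm49395 on its own strand. Whether counting used strand is not given in the sources used here, so reads from these overlaps could belong to either gene.

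The RefSeq promoter table (GRCm38.p6) matched 5 of the 10 genes. The 250 bases before the start of Itga4 (chr2:79255176-79255425, plus strand), Itgb1 (chr8:128685404-128685653, plus strand) and Itgb7 (chr15:102231936-102232185, minus strand) are printed because Itga4 can pair with either beta chain. In the values below these alpha and beta genes also stood at different relative levels in the sorted populations, which was not tested. Capitals mark CACCC in either orientation, the core of the box bound by Klf2 and related factors.
Itga4: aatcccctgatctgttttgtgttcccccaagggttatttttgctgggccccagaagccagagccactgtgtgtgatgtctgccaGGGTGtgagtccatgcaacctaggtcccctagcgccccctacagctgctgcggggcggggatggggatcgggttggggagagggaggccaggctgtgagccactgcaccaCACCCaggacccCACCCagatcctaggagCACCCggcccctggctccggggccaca
Itgb1: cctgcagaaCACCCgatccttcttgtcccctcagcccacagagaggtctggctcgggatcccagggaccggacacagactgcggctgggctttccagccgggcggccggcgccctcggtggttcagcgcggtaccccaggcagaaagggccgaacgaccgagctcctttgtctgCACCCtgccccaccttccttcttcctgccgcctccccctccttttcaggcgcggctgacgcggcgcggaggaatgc
Itgb7: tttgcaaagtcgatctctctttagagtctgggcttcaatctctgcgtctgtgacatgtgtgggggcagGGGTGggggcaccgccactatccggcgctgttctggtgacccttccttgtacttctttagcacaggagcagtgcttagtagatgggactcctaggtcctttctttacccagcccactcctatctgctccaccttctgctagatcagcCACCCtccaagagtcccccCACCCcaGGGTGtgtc
CACCC was searched on both strands and was found 4 times before Itga4, 2 times before Itgb1, 4 times before Itgb7 and 2 times before Itga1, with no match before Cd44. It occurs in 51.3% of 27025 promoters of this length. A Runx core, TGTGGT, was found 1 time before Itga4 and in none of the other 4, against 14.2% of all promoters. An AP-1 site, TGANTCA, was found in none of the 5, against 6.87% of all promoters. G and C made up 64.0% of the Itga4 window, 68.0% of that of Itgb1 and 56.0% of that of Itgb7, and the Itgb1 window held 21 CpG dinucleotides against 6 for Itga4 and 5 for Itgb7.

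Levels are RPKM in the bulk pair and FPKM elsewhere, both scaled by transcript length and by the mapped total. Total reads were not given, so depth and its precision are unknown. Genes at 1 or more numbered 7908 to 8042 in the bulk libraries, 8860 to 10362 in the sorted ones and 5752 to 8640 in the antibody ones. All 10 T cell marker genes read at least 1 in all 15 libraries. Among the sorted libraries the summed T cell markers were 6733 to 9078 FPKM in TIM-3_SP, 3493 to 7944 in DN and 2174 to 4884 in B7S1R_SP. Summed myeloid markers, over the 12 to 17 of 17 listed, were 464 to 6459 FPKM in B7S1R_SP, 97.6 to 556 in DN and 106 to 139 in TIM-3_SP. Of their defining genes, Lyz2 read 97.7, 122 and 2440 in B7S1R_SP numbered 1, numbered 2 and labelled KO. In the same order Csf1r read 22.25, 1.82 and 4.27 and Adgre1 0.05, 0.09 and 15.98. In the other sorted libraries Lyz2 read at most 16.35, Csf1r at most 0.76 and Adgre1 at most 0.02. Summed platelet and erythroid genes were 11537 to 95218 FPKM in the wild-type libraries numbered 2 and 11.1 to 317 in those labelled KO. Vtcn1, the targeted gene, read 0.0687 RPKM in bulk wild type and 9.46 in the bulk KO-labelled library. It read 0 in all 3 wild-type libraries numbered 2 and 0.16, 2.50 and 1.02 FPKM in the B7S1R_SP, TIM-3_SP and DN libraries labelled KO, so the label is used here without a check from the gene.

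Across the 9 sorted libraries Cd69 stood highest and the residency alpha chains Itgae and Itga1 lowest. Cd69 read 130 to 615 FPKM with a median of 277, Itgb2 8.80 to 301 with a median of 74.8, and Itgb1 8.10 to 294 with a median of 25.2. Next in order of mean log2(FPKM + 1) came Itgal, Crtam, Cd44, Itga4 and Itgb7, with medians of 15.7, 15.7, 20.5, 14.4 and 5.77 FPKM. Itgae read 0 to 2.79 FPKM and Itga1 0 to 2.96, with medians of 0.820 and 0.160. The step from Cd69 down to Itgb2 was 2.32 ± 1.65 log2 units (SD, n = 9) and that from Itgb7 down to Itgae 2.32 ± 1.72, with the upper gene higher in 8 of 9 and 9 of 9 libraries. The other neighbours lay within 1 SD of their difference or at its edge, as for Cd44 over Itga4 at 0.68 ± 0.68. Cd69 stood above at least 95.1% of listed genes in every sorted library.

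**Figure D1:**
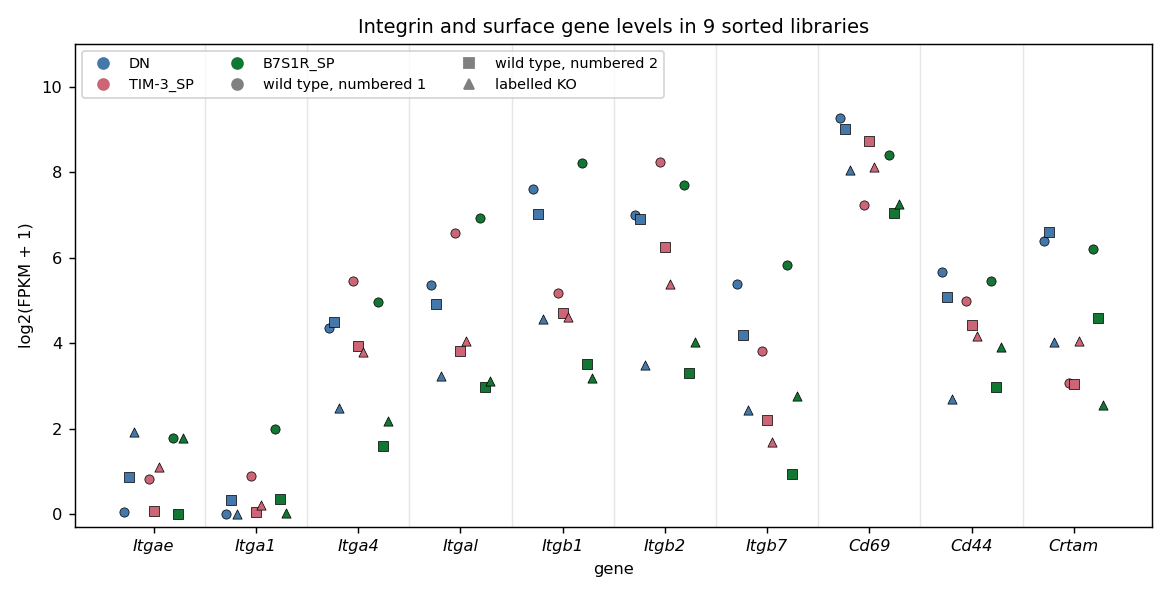
Levels of the 10 genes in the 9 sorted libraries, as log2(FPKM + 1) on the vertical axis, 1 point per library. Colour gives the population and shape the set. Cd69 lies at the top, with 130 to 615 FPKM, and Itgae and Itga1 at the bottom, under 3 FPKM.

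Among the alpha chains, Itgae and Itga1 had the lowest levels, at most 2.79 and 2.96 FPKM in the sorted libraries. There they stood above at most 61.4% and 44.4% of listed genes. In the order numbered 1, numbered 2 and labelled KO, Itgae read 2.41, 0 and 2.42 FPKM in B7S1R_SP, 0.77, 0.05 and 1.15 in TIM-3_SP, and 0.03, 0.82 and 2.79 in DN. Itga1 read 2.96, 0.27 and 0.02 in B7S1R_SP, 0.85, 0.03 and 0.16 in TIM-3_SP, and 0, 0.25 and 0 in DN. No population was apart from the others for either gene. Both missed the mean of 1 FPKM needed to enter the population fits.

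Itga4, the alpha4 chain, read 30.2, 2.0 and 3.52 FPKM in B7S1R_SP, 42.7, 14.4 and 12.9 in TIM-3_SP, and 19.5, 21.6 and 4.55 in DN, in the same order. Itgal, the alpha chain of LFA-1, read 120, 6.84 and 7.63 in B7S1R_SP, 94.0, 13.1 and 15.7 in TIM-3_SP, and 40.2, 29.2 and 8.36 in DN. For both genes the libraries numbered 1 of B7S1R_SP and TIM-3_SP were the highest of the 9, and the ranges of the 3 populations overlapped.

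The beta chains had SDs of 1.67 to 1.85 log2 units over the 9 sorted libraries, against 1.33 for Itga4 and 1.48 for Itgal. Itgb1, the partner of Itga1 and Itga4, read 294, 10.4 and 8.10 FPKM in B7S1R_SP, 35.3, 25.2 and 23.4 in TIM-3_SP, and 194, 129 and 22.5 in DN. Itgb7, the partner of Itgae and Itga4, read 55.6, 0.91 and 5.77 in B7S1R_SP, 13.1, 3.59 and 2.23 in TIM-3_SP, and 41.0, 17.3 and 4.39 in DN. Itgb2, the beta chain of LFA-1, read 205, 8.80 and 15.3 in B7S1R_SP, 301, 74.8 and 40.6 in TIM-3_SP, and 127, 119 and 10.2 in DN. Within each set TIM-3_SP had a lower Itgb7 level than DN, and B7S1R_SP had lower Itga4 and Itgb2 levels than TIM-3_SP, but over all libraries the populations overlapped. The ratio of the Itga4 level to that of Itgb7, both per length, was 3.27, 4.01 and 5.81 in TIM-3_SP, 0.475, 1.25 and 1.04 in DN and 0.543, 2.20 and 0.610 in B7S1R_SP. These ratios were higher in all 3 TIM-3_SP libraries than in any other sorted library, which was noticed after the values were seen and not tested. Itga4 to Itgb1 stood at 1.21, 0.570 and 0.552 in TIM-3_SP against 0.101, 0.168 and 0.202 in DN and 0.103, 0.192 and 0.435 in B7S1R_SP, so that ratio too was highest in TIM-3_SP. The sequences before the starts of these 3 genes are the ones printed above, and whether they bear on the ratios was not tested.

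Of the other surface genes, Cd69 read 337, 130 and 153 FPKM in B7S1R_SP, 150, 423 and 277 in TIM-3_SP, and 615, 515 and 265 in DN. Cd44 read 43.1, 6.85 and 14.0 in B7S1R_SP, 30.7, 20.5 and 16.9 in TIM-3_SP, and 49.6, 32.9 and 5.43 in DN. Crtam read 72.8, 23.2 and 4.85 in B7S1R_SP, 7.35, 7.30 and 15.7 in TIM-3_SP, and 83.4, 95.7 and 15.2 in DN. The wild-type DN libraries had more Crtam than either wild-type TIM-3_SP library, and B7S1R_SP lay between them, while the libraries labelled KO did not keep that order.

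Between wild-type TIM-3_SP and DN, 5 of the 8 genes with a mean above the 1 FPKM cut-off read lower in TIM-3_SP and 3 higher, and none passed the test. The difference for Crtam was -3.44 ± 0.83 on the log2(FPKM + 1) scale (SE, limma adjusted p = 1.00), seen in both wild-type sets at -3.34 and -3.54 and at 0.037 in the set labelled KO. Itgb1 differed by -2.36 ± 1.39, Itgb7 by -1.78 ± 1.51 and Cd69 by -1.15 ± 0.89, each with a limma adjusted p of 1.00. The median over the 8 genes was -0.909, against -0.169 over all 10411 genes tested, of which 58.7% read lower in TIM-3_SP. With each library moved to a common median these medians were -0.686 and 0.0546. The gap did not hold in the libraries that list the same genes, numbered 2 and labelled KO, where the medians were -0.136 over 9 of the genes and -0.243 over all, and it was smaller with all 9 libraries and the set as a block, at -0.277 and -0.143. No gene of the 10411 was called (0%). At an unadjusted p under 0.05, limma passed 358 genes (3.44%) and 1 of the 8, Crtam. With the replicate number as a block, limma called 2 genes (0.0192%) and none of the 8, and 654 (6.28%) had an unadjusted p under 0.05, with Crtam (adjusted p = 0.492) and Itgb1 (adjusted p = 0.786) among them. In the libraries numbered 2 and labelled KO, the Crtam difference was -1.75 ± 0.88. Of the 9 genes comparable in all 3 sets, Itgb7 read lower in TIM-3_SP in each, at -1.58, -1.99 and -0.74, against 19.7% of all genes, and none read higher in each, against 8.61%.

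B7S1R_SP and TIM-3_SP were next compared over the same fit, so the 3 comparisons share libraries. Crtam read higher in B7S1R_SP by 2.34 ± 0.83 (limma adjusted p = 0.981), with 3.14 and 1.54 in the wild-type sets and -1.51 in the set labelled KO. It was 0.016 ± 0.88 in the libraries numbered 2 and labelled KO. Itgb2 differed by -1.75 ± 1.41 and Itga4 by -1.42 ± 1.18, and these 2 genes were the ones lower in B7S1R_SP in all 3 sets, of 9, against 13.9% of all genes. None of the 9 was higher in all 3, against 24.7%. No gene was called (0%), and 493 genes (4.74%) with 1 of the 8, Crtam, had an unadjusted p under 0.05 in limma. With the replicate block limma called 7 genes (0.0672%) and none of the 8, 812 (7.80%) had an unadjusted p under 0.05, and Crtam had an adjusted p of 0.467. The median over the 8 genes was -0.255, against 0.157 over all genes. It rested on the B7S1R_SP libraries: without that numbered 2 it was 1.24 with all 8 higher, and without that numbered 1 it was -1.90 with 7 of 8 lower.

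Between B7S1R_SP and DN all 8 genes read lower in B7S1R_SP, with a median of -1.28 against -0.0267 over all genes, of which 51.2% read lower. The differences ran from -0.20 for Itgal to -1.47 for Itgb2, with Cd69 at -1.42 ± 0.89 and Crtam at -1.10 ± 0.83. No gene was called (0%), and 280 genes (2.69%) and none of the 8 had an unadjusted p under 0.05 in limma. With the replicate block limma called none (0%), and 553 genes (5.31%) and none of the 8 had an unadjusted p under 0.05. The 2 wild-type B7S1R_SP libraries differed: without that numbered 2 the median was 0.634 and 6 of the 8 read higher in B7S1R_SP, and without that numbered 1 it was -2.62 and all 8 read lower. In the libraries numbered 2 and labelled KO, which again hold B7S1R_SP numbered 2, the median was -1.46 over 9 genes, all lower. In the set labelled KO alone, Cd44, Itgb2 and Itgb7 read higher in B7S1R_SP, by 1.22, 0.53 and 0.33. The rest of the 9 read lower there, from -0.12 for Itgal to -1.47 for Crtam. In the library numbered 2 the T cell markers summed to 2405 FPKM, against 4884 in the other wild-type B7S1R_SP library, with Cd8a at 55.0 against 352 FPKM, and the part of this in the result was not tested. Cd69 and Crtam were lower in B7S1R_SP than in DN in all 3 sets, the 2 of 9 genes that were, against 14.0% of all genes, and none was higher in each, against 15.8%.

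**Figure D2:**
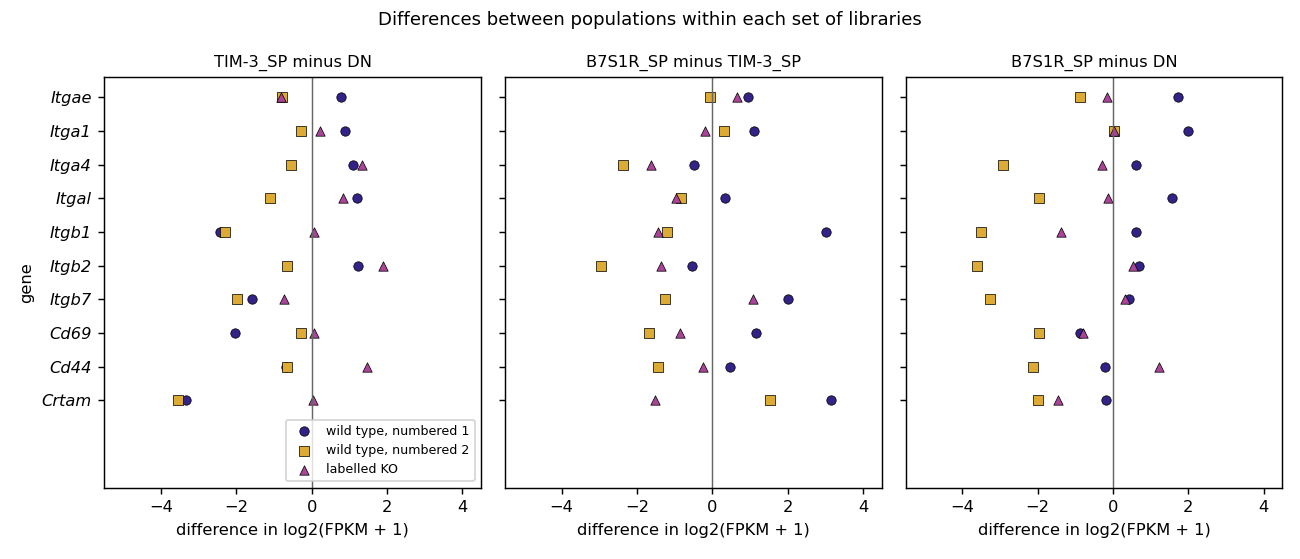
Differences in log2(FPKM + 1) between populations within each set, 1 panel per comparison and 1 row per gene, with the set as shape and colour and the line at 0. In the first panel Crtam lies at -3.34 and -3.54 in the wild-type sets and near 0 in the set labelled KO, and in the third panel the wild-type set numbered 2 lies to the left for nearly all genes.

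The KO label was compared with wild type over the 3 sorted libraries labelled KO and the 3 wild-type libraries numbered 2, whose files list the same genes, with the population as a covariate. Each population has 1 library of each label, so the populations stand in for replicates. The SE and p below therefore measure how the difference varied between populations, with 2 residual degrees of freedom. Of the 9 genes tested, 8 read lower in the libraries labelled KO and Itgae read higher, where 59.5% of all genes read lower. Itgae differed by 1.29 ± 0.38 (SE, limma adjusted p = 0.367), with 1.77 in B7S1R_SP, 1.03 in TIM-3_SP and 1.06 in DN, all from levels under 3 FPKM. Itgae reached the mean of 1 FPKM only through the libraries labelled KO. These read 2.42, 1.15 and 2.79 in B7S1R_SP, TIM-3_SP and DN, against 0, 0.05 and 0.82 in wild type numbered 2. Its test and its place in these counts therefore give no support for a difference. At a pseudocount of 0.1 in place of 1 the Itgae difference was 3.12, so its size depends on that choice. It was the 1 gene of 9 higher in all 3 populations, against 14.1% of all genes, although the B7S1R_SP wild-type library numbered 1 had as much Itgae as the one labelled KO. Itgb1 was the 1 gene lower in all 3, against 23.5%, at -0.33, -0.10 and -2.46 in B7S1R_SP, TIM-3_SP and DN, and differed by -0.96 ± 0.55 (limma adjusted p = 0.50). Crtam differed by -1.20 ± 0.71 and Itgb2 by -1.18 ± 0.76, with limma adjusted p of 0.511 and 0.532. Without either DN library the differences were -0.067 for Itgb2, -0.21 for Itgb1 and -0.52 for Crtam. Without either B7S1R_SP library Itgb2 differed by -2.14 and Crtam by -0.78, and without either TIM-3_SP library Crtam differed by -2.31. With all 9 libraries Itgb2 differed by -2.26 and Itgb1 by -1.92. The median over the 9 was -0.525, against -0.157 over all 10097 genes, and without the DN library numbered 2 it was 0.192, with 5 higher and 4 lower. Limma called 4 of these genes (0.0396%), all lower, namely Hba-a1, Hba-a2, Hbb-bs and Xkrx, and none of the 9. At an unadjusted p under 0.05 it passed 1255 genes (12.4%) and 1 of the 9, Itgae, which entered the fit only through the libraries labelled KO. The haemoglobin genes among those called are the ones whose sums differ between the sets, as given above, and their part in the 10 genes' values was not tested.

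The DN pair held the lowest differences for all of the 9 genes but Itgae. Against the DN library numbered 2, its differences were -3.42 for Itgb2, -2.57 for Crtam, -2.46 for Itgb1, -2.40 for Cd44, -2.02 for Itga4, -1.76 for Itgb7, -1.69 for Itgal and -0.96 for Cd69. In TIM-3_SP the same differences ran from -0.87 for Itgb2 to 1.03 for Itgae. In B7S1R_SP 7 of the 9 genes read higher in the library labelled KO, from 0.14 for Itgal to 1.83 for Itgb7, and Itgb1 and Crtam read lower. Myeloid markers summed to 6459 FPKM in that B7S1R_SP library, against 464 in the one numbered 2. Its T cell markers summed to 2174 against 2405, with Cd3e at 34.2 against 143. The part of these in the differences was not tested. Without the DN pair, the fitted differences of Itga4, Itgal, Itgb7 and Cd44 were 0.23, 0.19, 0.66 and 0.34. The T cell markers summed to 3493 FPKM in that DN library, against 6311 in the one numbered 2. Whether the KO-label difference itself varied with the population was tested in all 9 libraries with a term for the gene table. The label has 1 library in each population, so the spread in that test comes from the wild-type pairs, with 2 residual degrees of freedom, and a count of 0 says little. No gene was called (0%) of 10178, and 96 (0.943%) had an unadjusted p under 0.05 by limma's F test, with Crtam as the 1 of the 9 (adjusted p = 1.000). Crtam differed by -2.05 in B7S1R_SP, 1.01 in TIM-3_SP and -2.57 in DN.

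**Figure D3:**
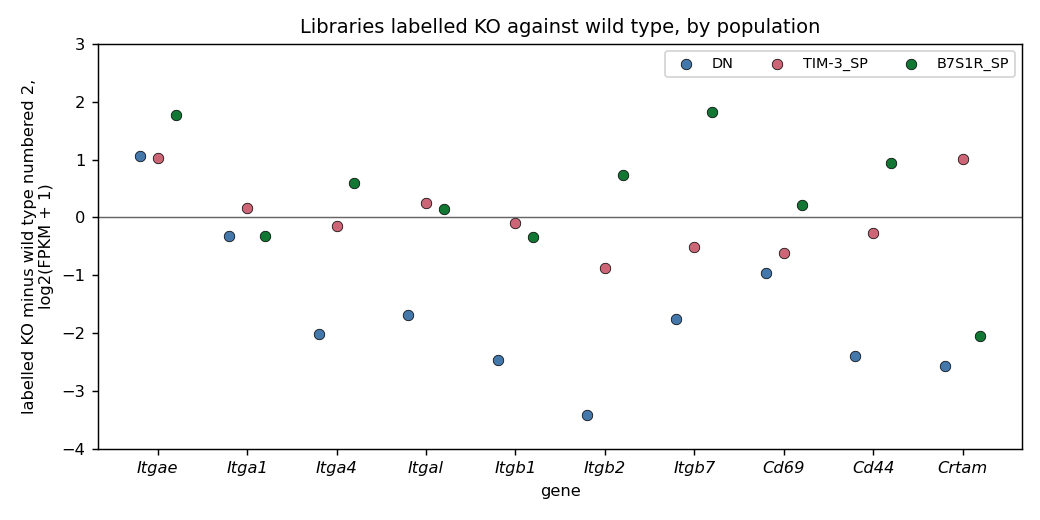
Library labelled KO minus wild-type library numbered 2, in log2(FPKM + 1), for the 10 genes in the 3 sorted populations, 1 point per pair. Itgae lies above 0 in all 3 populations, and the DN points reach -3.42 for Itgb2.

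In the bulk pair, with 1 library each and so no replicate check, 9 of the 10 genes were listed and Itgal was not. Cd69 read 276 RPKM in wild type and 618 in the KO-labelled library, a 2.23-fold higher level on the RPKM + 1 scale. It was the 1 gene past 2-fold of the 4 with 5 RPKM or more in the higher library, Itga4, Itgb1, Itgb2 and Cd69, where 10.7% of 6075 genes were past 2-fold higher and 12.1% lower. Itga4 read 28.0 and 50.4, Itgb2 127 and 207, and Itgb1 88.7 and 70.4. Crtam read 4.04 and 4.28, close to each other. Itgae read 0.0473 and 0.001, the lowest value the file holds, and Itga1 0.813 and 0.0416. Itgb7 read 0.401 and 1.57, and Cd44 0.531 and 0.301. Low RPKM values in this pair were in ratios of whole numbers for 77.3% of 3965 low genes, against 0.101% after a shift, within 0.02%. On that scale the smallest reads that give the ratio of wild type to KO label were 18 to 1 for Itga1, 4 to 17 for Itgb7 and 13 to 8 for Cd44, or common multiples of them, so these levels may rest on few reads. Whole numbers up to 40 were tried, and some matches can arise by chance. Cd44 and Itgb7 stood above 46.4% to 49.0% and 46.7% to 57.2% of listed genes in the bulk pair, where in the sorted libraries, in another unit and another gene table, Cd44 stood above 70.9% to 88.0% and Itgb7 above 45.2% to 89.0%, a range that takes in its bulk values.

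The 4 antibody libraries also had 1 library each and no replicate check. Genes at 1 or more numbered 5752 in Control, 6972 in anti_B7S1, 8640 in anti_PD1 and 6913 in combo. Havcr2, the gene of Tim-3, read 0.19, 174, 213 and 198 FPKM in the same order. The part of such differences in library content in the values below was not tested. Crtam read 1025 FPKM in Control, 0.03 in anti_B7S1, 35.6 in anti_PD1 and 25.0 in combo. Itgb7 read 75.0, 19.2, 0.21 and 37.6 FPKM in the same order, and Cd69 84.6, 23.2, 203 and 10.2. Crtam thus spanned the widest range of the 10 genes in these libraries, and the lowest level of Itgb7 was in anti_PD1. Itgal read 231, 109, 75.6 and 168 FPKM, Itga4 11.3, 31.1, 14.9 and 11.7, and Itgb1 136, 169, 109 and 78.0. Itgb2 read 159, 257, 356 and 270, and Cd44 64.3, 50.5, 44.9 and 71.9. Cd44 stayed within a narrow range, while Itgae reached at most 0.08 and Itga1 at most 0.54 FPKM.

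Of 8 genes with 5 FPKM or more in the higher library, 2 were past 2-fold higher and 3 lower in anti_PD1 than in Control, where 43.8% of 7829 genes were higher and 23.8% lower. Those were Itgb2 and Cd69, 2.23-fold and 2.38-fold higher, and Itgal, Crtam and Itgb7, 3.03-fold, 28.0-fold and 62.8-fold lower. In combo over anti_B7S1, the other pair that differs by the PD-1 antibody, Crtam was 25.2-fold higher, and Itgb1, Cd69 and Itga4 were 2.16-fold, 2.17-fold and 2.53-fold lower, with 33.3% of genes higher and 30.8% lower. Cd69 and Crtam therefore went opposite ways in the 2 pairs. In anti_B7S1 over Control, Itga4 was 2.60-fold higher and Itgal, Cd69, Itgb7 and Crtam were 2.11-fold, 3.53-fold, 3.77-fold and 996-fold lower, with 37.9% of genes higher and 29.0% lower. In combo over anti_PD1, Itgal and Itgb7 were 2.20-fold and 31.9-fold higher and Cd69 was 18.2-fold lower, with 23.6% higher and 32.7% lower. In combo over Control, which shares a library with each of these 4 pairs, Cd69 and Crtam were 7.66-fold and 39.5-fold lower, with 40.1% higher and 28.0% lower. Past 2-fold either way were 5, 4, 5, 3 and 2 of the 8 genes in these comparisons, in the order given, against 5289 of 7829, 4834 of 7546, 4736 of 7083, 4501 of 8000 and 4917 of 7226 genes. None of these shares among the 8 genes was above that of all genes. All folds are on the FPKM + 1 scale, and the largest rest on a level near 0. At a pseudocount of 0.1 the log2 ratio of Crtam in anti_B7S1 over Control was -12.95 in place of -9.96 and in combo over anti_B7S1 7.59 in place of 4.66. That of Itgb7 was -7.92 in place of -5.97 in anti_PD1 over Control and 6.92 in place of 4.99 in combo over anti_PD1.

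**Figure D4:**
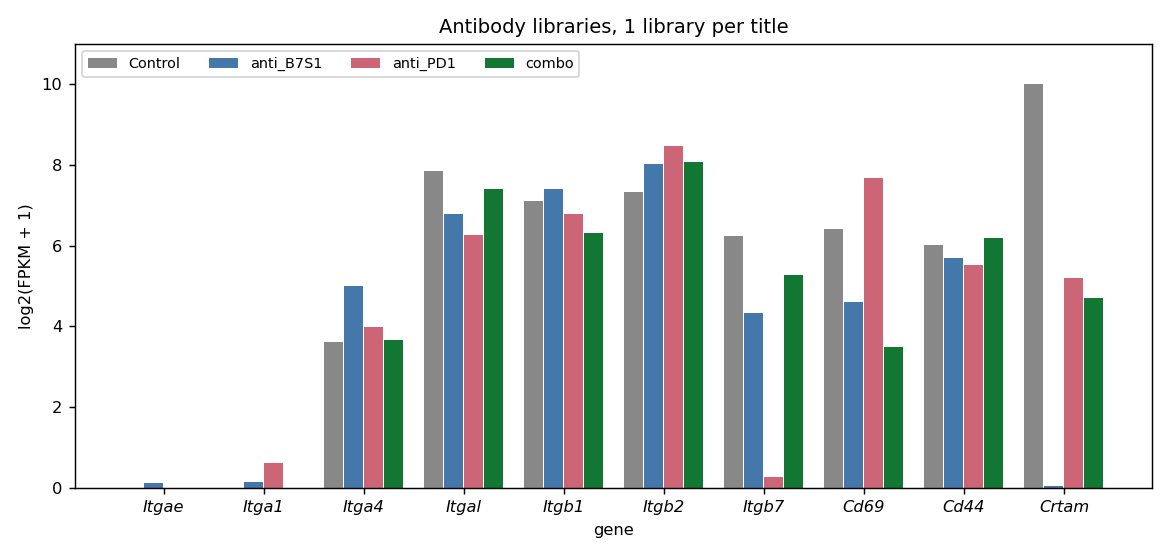
Levels of the 10 genes in the 4 antibody libraries as bars of log2(FPKM + 1) from 0, with 1 library per bar and no error to show. Crtam reads 1025 FPKM in Control and 0.03 in anti_B7S1, and Itgb7 reads 0.21 in anti_PD1.

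The related genes were taken in 5 lists, and none of their members was called in any of the 4 limma comparisons of the sorted cells. Of the residency and egress genes, 20 of 23 were tested between TIM-3_SP and DN, with 8 higher, 12 lower and a median of -0.22 against -0.17 over all genes. S1pr1, the receptor that draws T cells out of tissue and that Cd69 opposes, read 77.3, 20.1 and 7.70 FPKM in DN and 0.26, 0.15 and 4.20 in TIM-3_SP, a difference of -5.08 ± 0.87 (limma adjusted p = 0.801). The chemokine gene Xcl1 differed by -3.92 ± 0.87 and the memory factor gene Tcf7 by -3.66 ± 0.78, each with a limma adjusted p of 1.00. In all 3 sets these 3 genes read lower in TIM-3_SP, which is how they were picked. Klf2, which stands outside that rule, is a factor known in T cells to drive S1pr1, and read 68.5, 12.9 and 45.0 FPKM in DN against 11.4, 7.92 and 25.8 in TIM-3_SP.

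Of 18 ligand genes 9 were tested, 7 higher and 2 lower in TIM-3_SP, with a median of 0.43. Over all genes tested between TIM-3_SP and DN the median was -0.17, with 41.1% higher and 58.7% lower. The same background holds for the next 3 lists. Spp1, which encodes osteopontin, a ligand of alpha4 integrins, read 1753, 3185 and 1603 FPKM in TIM-3_SP and 235, 598 and 204 in DN, a difference of 2.65 ± 0.98, and Icam2, an LFA-1 ligand, differed by -2.95 ± 1.40, with 0 FPKM in TIM-3_SP numbered 1. Of 19 other integrin subunits 4 were tested, with a median of 0.51. Itgav, the alphaV chain, differed by 1.14 ± 0.74 and Itga6, a laminin receptor chain, by -1.07 ± 0.76. Of 26 activation and adaptor genes 21 were tested, 7 higher and 14 lower, with a median of -0.14. Rasgrp2, an activator of Rap1, differed by -0.99 ± 1.11, the adaptor genes Skap1 and Fyb by -0.98 ± 0.94 and -0.62 ± 0.77, and Rap1a by 0.41 ± 0.77. Of 18 genes of the TGF-beta pathway, which induces Itgae in T cells, 12 were tested, 6 higher and 6 lower, with a median of 0.061, and Smad4 differed by -1.10 ± 0.79. All of these had a limma adjusted p of 1.00. For the KO label the medians were -0.67 for activation and adaptor genes, -0.37 for residency and egress genes, 0.73 for ligands, -0.28 for other subunits and -0.028 for the TGF-beta pathway, against -0.16 over all genes.

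Over the 9 sorted libraries, on log2(FPKM + 1) centred on each gene table, the closest of the 10 genes were Itga4 and Itgb2 (Pearson r = 0.964, n = 9 libraries). Itgal correlated with its partner Itgb2 at 0.841, and Itgb1 correlated with Crtam at 0.863, with Cd69 at 0.853 and with Itgb7 at 0.811. Among 6239 or 6240 other genes averaging 5 FPKM or more, those most like Crtam were St13 at 0.982, Fech at 0.955 and Mtif3 at 0.952. Those most like Cd69 were BC029214 at 0.962, Zscan26 at 0.957 and Zfp938 at 0.957. For Itgae they were Anp32e at 0.964, Yy1 at 0.932 and Actn2 at 0.913, and for Itga1 Bap1 at 0.961, Bms1 at 0.941 and Smc1a at 0.941. These values describe 9 libraries that share populations, gene tables and, within each library, 1 depth. The genes named had the highest correlations of all those searched, which favours high values with so few libraries. Itga1 read above 0.27 FPKM only in B7S1R_SP and TIM-3_SP numbered 1, at 2.96 and 0.85, so its correlations rest mainly on these.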

How the data were processed

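RNA of CD8+ T cells from tumours was measured in 15 libraries made with the SMARTer ultra low input kit. The authors' bulk files give RPKM, per the file headers, none below 0.001, and the authors' other files give FPKM, per the file headers. HISAT2, Bowtie2, RSEM and the build mm10 are named without versions, per the submitters' processing notes. Raw counts were not used here. Groups came from the titles, since strain and genotype entries appear to have been filled in as a running series in places. The deposited files form 4 gene tables of 17205, 15627, 17605 and 14710 unique symbols, for the bulk pair, the wild-type sorted libraries numbered 1, those numbered 2 with those labelled KO, and the antibody libraries.

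For sorted cells, limma 3.58.1 (R 4.3.3) was fitted to log2(FPKM + 1) of genes that all libraries of a fit list and whose mean reaches 1 FPKM, 2-sided, with Benjamini-Hochberg adjustment over all genes tested and a threshold of 0.05. The fit was also run on simulated data with added changes larger than any fitted for the 10 genes. That run therefore says nothing about detecting changes of their size. Populations were compared in 1 fit of the 6 wild-type libraries. The KO-label comparison used the libraries numbered 2 and those labelled KO, with population as a covariate. As a pairing check, each population's change from number 1 to number 2 was correlated with that of the others (0.193, 0.269 and 0.401, 10411 genes). All exceed 0.1, so blocked values are given for each population comparison. Same-numbered wild-type libraries also share a gene table, so this check cannot tell pairing by number from a difference between gene tables. Nothing says that numbered libraries came from separate animals, so p-values measure the spread between libraries, which may be technical. The bulk and antibody libraries were compared as ratios of value + 1, counted where the higher library had 5 or more and the ratio was at least 2. The alternatives were other pseudocounts, filters, scalings, blocks, sets of libraries and leaving out each library. All 10 genes are named throughout. Of each related list, up to 4 genes with the largest TIM-3_SP to DN difference and 1 sign in all 3 sets are named (1 such gene is not reported here), and for 4 genes the 3 most correlated others, leaving out predicted genes, pseudogenes, small RNAs and receptor variable segments. The 10 genes and the lists were chosen with earlier results of these data known. Sequences are from RefSeq, GRCm38.p6. Tables and figures were made in Python 3.11.15 with pandas 2.3.3 and matplotlib 3.10.9.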

Additional observations from a re-analysis of the deposited data

Results flagged for a closer look

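In the antibody libraries the same antibody went with opposite differences in 2 pairs of libraries for 4 genes, and these differences were not tested because each title has 1 library. Past 2-fold were 5289 of 7829 genes in anti_PD1 over Control and 4834 of 7546 in combo over anti_B7S1. They were 4736 of 7083 in anti_B7S1 over Control and 4501 of 8000 in combo over anti_PD1. The share of all genes that went opposite ways was not counted, so these flags are no trait of the 4 genes. With the PD-1 antibody, Cd69 differed by 1.25 log2 units in anti_PD1 over Control and by -1.12 in combo over anti_B7S1. Crtam differed by -4.81 and by 4.66 in the same pairs. With the B7S1 antibody, Itgal differed by -1.07 in anti_B7S1 over Control and by 1.14 in combo over anti_PD1, and Itgb7 by -1.91 and by 4.99.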

How the results depend on the processing

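None of the 10 genes was called in any setting of the population, KO-label or interaction comparisons that tested it. Itga1 was tested only without the filter, and Itgae was absent from the main population fit and most of its alternatives. Of 400 values of tested differences under the alternatives, 363 kept their direction and 37 turned, all of differences that had not passed the test. For no such turn was the cause tested. Leaving out each library in turn, TIM-3_SP minus DN ranged from -0.48 to 1.02 for Itga4, from -1.33 to 1.43 for Itgal and from -0.71 to 1.28 for Itgb2. B7S1R_SP minus TIM-3_SP ranged from -3.11 to 0.27 for Itga4, -2.22 to 1.73 for Itgal, -1.44 to 3.26 for Itgb1, -3.95 to 0.45 for Itgb2, -2.07 to 2.82 for Itgb7, -1.01 to 0.48 for Cd69 and -1.73 to 0.75 for Cd44. B7S1R_SP minus DN ranged from -2.84 to 0.54 for Itga4, -2.17 to 1.78 for Itgal, -3.80 to 0.89 for Itgb1, -3.66 to 0.73 for Itgb2, -3.86 to 1.03 for Itgb7 and -2.40 to 0.090 for Cd44. These upper values for B7S1R_SP minus DN were those without B7S1R_SP numbered 2. For the KO label the ranges were -1.08 to 0.23 for Itga4, -0.78 to 0.19 for Itgal, -1.13 to 0.66 for Itgb7 and -1.33 to 0.34 for Cd44, the upper ends without a DN library.

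With the libraries of 1 gene table, TIM-3_SP minus DN was -0.14 for Itgal and 0.41 for Cd44, and B7S1R_SP minus TIM-3_SP was -1.31 for Itgb1 and -0.10 for Itgb7. With the replicate block over 9 libraries, Cd44 differed by 0.050 between TIM-3_SP and DN. With each library moved to a common median, Itgb7 differed by 0.13 for the KO label. Counts of genes called, against 0 without a block, were 2 with the replicate block, 6 with the block over 9 libraries and 2 at a common median for TIM-3_SP minus DN. For B7S1R_SP minus TIM-3_SP they were 7, 42 and 4, and 92 with libraries of 1 gene table, where B7S1R_SP minus DN had 3. The replicate block changed no call among those of the 10 genes that it tested. For the KO label 4 genes were called, against 0 with all 9 libraries, 0 at a pseudocount of 0.1, 0 without the filter, 7 at a common median and 0 to 18 leaving out each library, with 18 without TIM-3_SP numbered 2, 13 without the TIM-3_SP library labelled KO and 0 without any of the other 4. In the interaction test, Crtam had an unadjusted p over 0.05 without the gene table term and at a pseudocount of 0.1. In the bulk pair 1389 genes were past 2-fold, against 2450 at a minimum of 1. Of 177 ratios of the 10 genes, 1 passed under 2-fold, Itgal in anti_B7S1 over Control at -0.83 at a common median. With unknown depth, levels near 0, as for Itgae and Itga1 in many of the libraries, cannot be told from absence.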
